A study of Mus musculus with 4 samples.

Results

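The expression of 10 genes for cell surface receptors and channels that sense lipids, protons or extracellular nucleotides was examined in large intestinal (LI) Treg cells that lack Setd2, a methyltransferase of histone H3K36. The genes were matched by symbol, and each of *Gpr183*, *S1pr1*, *S1pr4*, *Ptger2*, *Ptger4*, *P2rx7*, *P2rx4*, *P2ry10*, *Gpr18* and *Gpr65* was found in 1 of the 53379 rows of the deposited table. KO and control libraries differed in 3 of them when the p-value was left unadjusted and the threshold was 0.05, 2 of them higher in KO, beside 8.61% of all genes tested, and 1 lower, beside 7.57%. *Ptger4*, a receptor of prostaglandin E2, was lower in KO, while *P2rx4*, an ATP-gated channel, and *Gpr18* were higher. None of the 10 passed an adjusted p below 0.05 in limma.

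Both groups were C57BL/6 mice that carried the *Foxp3*Cre-YFP allele, which restricts Cre to cells that express Foxp3. Control mice had the genotype *Foxp3*Cre-YFP *Setd2* f/+ (Setd24flox/+Foxp3-YFPcre in the labels), so their Treg cells had 1 intact copy of *Setd2*, and KO mice were *Foxp3*Cre-YFP *Setd2* f/f littermates (Setd24flox/floxFoxp3-YFPcre). CD3+CD4+YFP+ cells of 2 to 3 adult mice were pooled for each library, and there were 2 control and 2 KO libraries. The study used both male and female mice, and the sex in each pool was not given in the sources used here. Oligo(dT)-purified RNA gave 150 bp read pairs, and the deposited values are FPKM (fragments per kilobase of transcript, scaled to the mapped fragments of the library), which can be compared between genes because they are scaled to transcript length.

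These receptors read out small molecules that tissue cells release. GPR183 follows gradients of oxysterols, and S1PR1 follows sphingosine-1-phosphate (S1P), the lipid that draws lymphocytes out of lymphoid organs. EP2 and EP4, encoded by *Ptger2* and *Ptger4*, bind prostaglandin E2 and raise cyclic AMP through the G protein Gs. P2X4 and P2X7 are cation channels opened by extracellular ATP, and P2X7 needs higher ATP and is known to cause death of T cells. P2RY10 is a receptor of lysophosphatidylserine, GPR18 has been linked to the lipids N-arachidonoyl glycine and resolvins and is known for intestinal intraepithelial T cells, and GPR65 is a sensor of extracellular protons.

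The FPKM of the 4 libraries share a common distribution, with a spread of at most 0.173% at the same rank among the 5000 highest values, so library depth and total mRNA per cell cannot be read from them. Of the Treg cell markers, *Cd3e*, *Cd4*, *Il2ra*, *Ctla4*, *Ikzf2*, *Tnfrsf18* and *Il2rb* were at 84.12 FPKM or more in every library, while *Foxp3* itself was listed at only 2.62 and 5.61 in control and 4.66 and 3.05 in KO. Of these markers *Ctla4* was called higher in KO at an unadjusted p below 0.05, the rule for a call used here (log2 fold change 0.44, adjusted p = 0.132 from limma), and *Ikzf2* lower (-0.37, adjusted p = 0.222), the latter with an unadjusted p of up to 0.152 without control 1 or KO 1. *Setd2* was listed at 38.19 and 27.36 in control and 26.33 and 36.3 in KO. Because FPKM covers the whole gene, this does not check the deletion, and KO and control stand for the libraries as labelled. In these bulk samples, fewer cells that express a gene and less of its mRNA per cell cannot be told apart.

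All 10 genes were abundant enough to be tested, with a mean above 5 FPKM in both groups. In control LI Treg cells *Gpr65* was the most abundant at 175 ± 4.64 FPKM (SD, n = 2), followed by *Gpr183* at 148 ± 5.51, *P2ry10* at 125 ± 4.41 and *S1pr1* at 90.9 ± 9.50. The libraries of these 4 genes did not overlap with those of the next gene in the order. They ranked 659th, 847th, 893rd and 1356th of the 7639 genes tested by mean FPKM. *Ptger2*, *Gpr18*, *P2rx4*, *Ptger4* and *S1pr4* followed with means between 24.4 and 33.98 FPKM, and in this stretch every gene overlapped with the next. *P2rx7* was the lowest at 12.2 ± 0.212 FPKM. In KO the 4 most abundant genes were again *Gpr65*, *P2ry10*, *Gpr183* and *S1pr1*, but *P2rx4* and *Gpr18* now stood above *Ptger2*, and *Ptger4* had moved below *S1pr4*. In KO, the libraries of *Gpr65*, *Gpr183*, *S1pr1*, *Ptger2*, *S1pr4* and *Ptger4* did not overlap with those of the next gene, while *P2ry10* overlapped with *Gpr183*, *P2rx4* with *Gpr18*, and *Gpr18* with *Ptger2*.

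**Figure D1:**
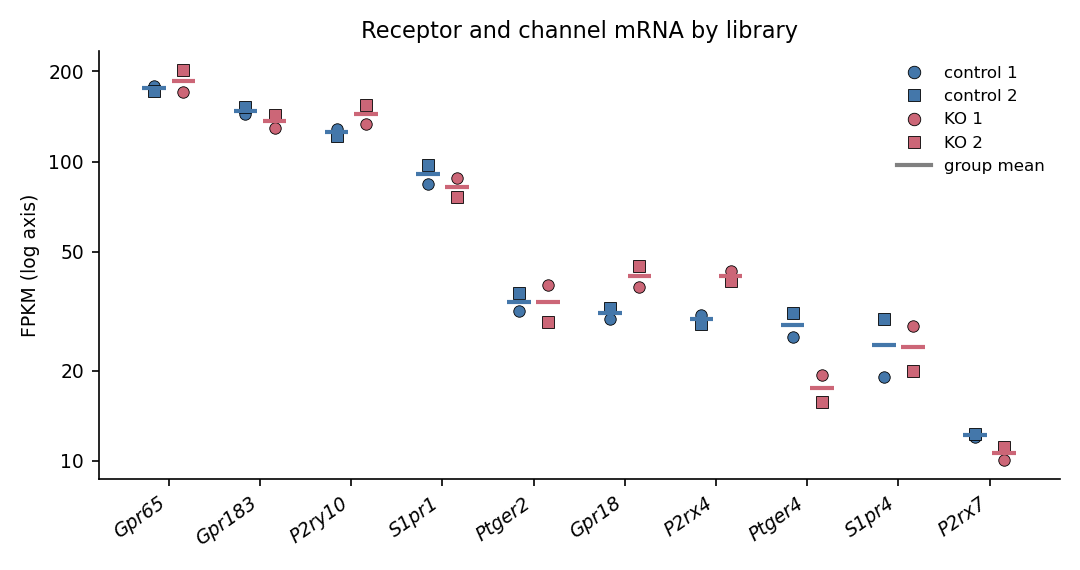
FPKM on a log axis of the 10 genes in the 2 control (blue) and 2 KO (red) libraries, ordered by the control mean, with a bar at each group mean. Both KO libraries lie below both control libraries for *Ptger4*, *Gpr183* and *P2rx7*, and above them for *P2rx4*, *Gpr18* and *P2ry10*. The groups overlap for *S1pr4*, *Ptger2*, *S1pr1* and *Gpr65*.

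KO was compared with control by limma on log2(FPKM + 1) over the 7639 protein-coding genes with a mean above 5 FPKM in either group. Adding 1 slightly understates the fold change of low genes. Of the 10 genes, 2 were called higher in KO, where 8.61% of all genes tested were, and 1 was called lower, where 7.57% were. At an adjusted p below 0.05 no receptor or channel gene was called, compared with 0.589% of the genes tested. The groups did not overlap for 6 of the 10 genes, with KO above in 3 and below in 3, nor for 47.1% of all genes tested. The median log2 fold change of the 10 genes was -0.0094 and that of all genes tested -0.0039, and the 10 genes had no common direction. With 2 libraries per group, limma p-values rest on a spread between pools of mice that is partly borrowed from genes of similar level. A single-gene exact permutation test cannot go below 0.333.

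**Figure D2:**
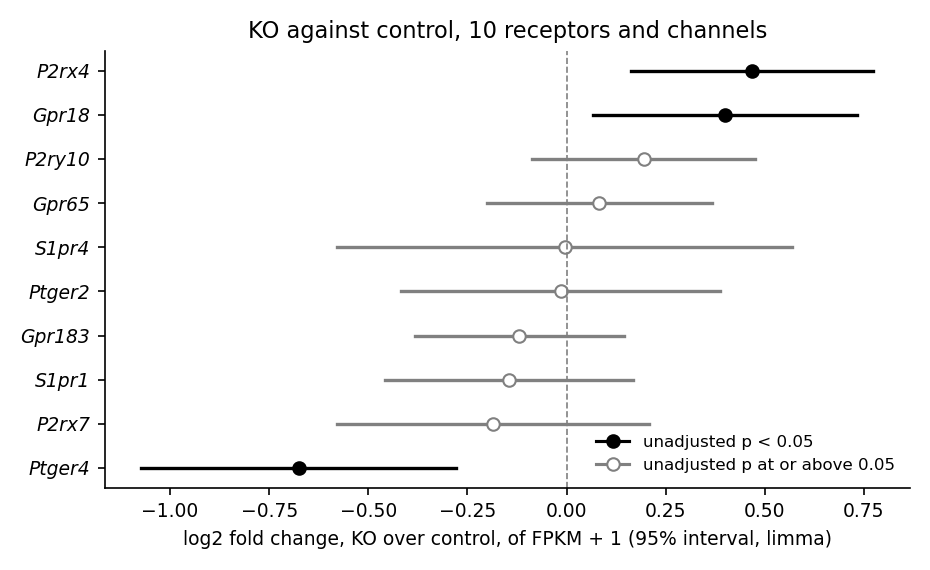
Log2 fold change (KO over control, of FPKM + 1) with its 95% interval from limma for the 10 genes, filled where the unadjusted p was below 0.05. The interval excludes 0 for *P2rx4* and *Gpr18* on the higher side and for *Ptger4* on the lower side, and is widest for *S1pr4*, from -0.58 to 0.57.

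The receptors of prostaglandin E2 were compared first. *Ptger4* (ENSMUSG00000039942, chromosome 15 of GRCm38, 5206661 to 5244187, minus strand) was at 25.99 and 31.07 FPKM in control and at 19.38 and 15.66 in KO. Both KO libraries were below both control libraries, and the gap between the groups, 6.61 FPKM, was larger than the distance between the libraries of either group. The mean fell from 28.5 ± 3.59 (SD, n = 2) to 17.5 ± 2.63, which is -0.68 on the log2 scale (standard error 0.17, unadjusted p = 0.00484, adjusted p = 0.132 from limma). It was the smallest p among the 10 genes and the 281st smallest of the genes tested. *Ptger4* shares 82 exonic bases with *Ttc33* on the other strand, which was at 17.78 and 18.91 FPKM in control and at 19.45 and 23.06 in KO, and 1015 with the pseudogene *Gm15937*, listed at 0.73 FPKM or less. How the reads of such stretches were assigned by strand is not given in the sources used here.

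*Ptger2* (ENSMUSG00000037759, chromosome 14, 44988195 to 45003820) encodes EP2, which is coupled to the same second messenger. It was at 31.64 and 36.32 FPKM in control and at 38.75 and 29.05 in KO, so the control libraries lay between the KO libraries. Its log2 fold change was -0.01 with a 95% interval from -0.42 to 0.39, which leaves room for a change in either direction. An antisense gene that spans *Ptger2*, *Gm17173*, was listed at 0.77 and 1.22 FPKM in control and at 4.77 and 4.54 in KO, and the 2 genes share 246 exonic bases.

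Of the ATP-gated channels, *P2rx4* (ENSMUSG00000029470, chromosome 5, 122707544 to 122729738) was at 30.71 and 28.74 FPKM in control and at 43.12 and 39.86 in KO. The KO libraries were both higher, by at least 9.15 FPKM, and the libraries within a group were at most 3.26 FPKM apart. The mean rose from 29.7 ± 1.39 (SD, n = 2) to 41.5 ± 2.31, or 1.40-fold, which is 0.47 on the log2 scale (standard error 0.13, unadjusted p = 0.00831, adjusted p = 0.165 from limma). Without KO 1 the log2 fold change was 0.41 and the unadjusted p from limma 0.0709, the only alternative of 15 in which this call was lost.

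*P2rx7* (ENSMUSG00000029468, chromosome 5, 122643911 to 122691432) ends 16111 bp before *P2rx4* begins on the same strand. It was at 12.03 and 12.33 FPKM in control and at 10.09 and 11.11 in KO, so both KO libraries were lower, by 0.92 FPKM or more. Its log2 fold change was -0.19 (95% interval -0.58 to 0.21, unadjusted p = 0.303, adjusted p = 0.634 from limma) and did not pass the test. These neighbouring genes therefore stood on opposite sides of 0, although only *P2rx4* was called.

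*Gpr18* and *Gpr183* are another pair of neighbours, 36769 bp apart on chromosome 14, and both lie inside *Ubac2* on the opposite strand without sharing exonic bases with it. *Gpr18* (ENSMUSG00000050350, 121911253 to 121915781) was at 29.74 and 32.52 FPKM in control and at 38.05 and 44.91 in KO. The KO libraries were both above the control libraries, and the gap of 5.53 FPKM was smaller than the 6.86 FPKM between the KO libraries. The mean rose from 31.1 ± 1.97 (SD, n = 2) to 41.5 ± 4.85, which is 0.40 on the log2 scale (standard error 0.14, unadjusted p = 0.0251, adjusted p = 0.238 from limma). Without control 1 the unadjusted p was 0.0932 and without KO 2 it was 0.191 in limma, so the call on *Gpr18* rested on each of these libraries. *Ubac2* was at 27.32 and 34.62 FPKM in control and at 42.3 and 33.67 in KO, with groups that overlapped.

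*Gpr183* (ENSMUSG00000051212, chromosome 14, 121952551 to 121965195) was at 144.02 and 151.81 FPKM in control and at 129.79 and 142.71 in KO. Both KO libraries were lower, but only 1.31 FPKM separated the groups, less than the distance within either group. The log2 fold change was -0.12 (95% interval -0.38 to 0.15, adjusted p = 0.650 from limma). The oxysterol ligand of GPR183 is made by *Ch25h* and *Cyp7b1* and removed by *Hsd3b7*, and in these cells the 3 genes were at 3.85 FPKM or less and were not tested.

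The sequences upstream of the 3 genes called at an unadjusted p below 0.05 in limma are shown. None of these calls passed an adjusted p below 0.05. Each line holds the 200 bases of GRCm38.p6 before the RefSeq start, 5′ to 3′ on the strand of the gene. The capitals mark matches on either strand to CACCC (the box bound by KLF factors), GGAAG (the core of ETS sites) or TGTGGT (the core of RUNX sites). The *Ptger4* stretch lies at chr15:5244188-5244387, that of *P2rx4* at chr5:122707344-122707543 and that of *Gpr18* at chr14:121915889-121916088.
Ptger4: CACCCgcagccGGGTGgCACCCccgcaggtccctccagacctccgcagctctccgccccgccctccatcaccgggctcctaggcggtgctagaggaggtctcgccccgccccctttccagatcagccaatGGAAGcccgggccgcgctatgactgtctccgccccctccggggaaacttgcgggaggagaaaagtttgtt
P2rx4: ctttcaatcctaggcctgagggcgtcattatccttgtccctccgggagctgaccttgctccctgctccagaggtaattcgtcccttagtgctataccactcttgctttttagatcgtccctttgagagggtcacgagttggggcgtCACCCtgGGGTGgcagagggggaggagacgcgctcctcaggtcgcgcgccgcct
Gpr18: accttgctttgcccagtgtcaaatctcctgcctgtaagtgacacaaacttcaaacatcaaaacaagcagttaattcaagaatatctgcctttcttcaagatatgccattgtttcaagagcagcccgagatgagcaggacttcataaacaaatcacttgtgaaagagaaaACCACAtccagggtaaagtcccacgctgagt

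The *Ptger4* stretch held 3 matches to CACCC and 1 to GGAAG, and the *P2rx4* stretch 2 to CACCC. The *Gpr18* stretch held only 1 match, to TGTGGT. RefSeq windows of 300 bases, from 250 before to 50 after the start, were at hand for 9 of the 10 genes, 11 windows in all. The windows of *Ptger4* and *P2rx4* had the highest GC content, 67.0% and 60.3%, and the most CpG dinucleotides, 25 and 18, compared with medians of 52.7% and 7 over all 32851 windows. The *Gpr18* window had 44.0% GC and 5 CpG, closer to those of *Gpr183* (35.3% and 4), *Ptger2* (37.7% and 3) and *Gpr65* (38.3% and 3). CACCC was in 5 of the 11 windows and in 57.5% of all windows, GGAAG in 7 and in 71.4%, and TGTGGT in 3 and in 16.8%. TATAAA was in 1 window (13.6% of all), the AP-1 letters TGANTCA in 2 (7.8%), and the cyclic AMP response element TGACGTCA in 0 (1.8%). A match is a description of these letters and no evidence that a factor binds there.

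The S1P receptors overlapped between the groups. *S1pr1* (ENSMUSG00000045092, chromosome 3, 115710433 to 115715072) was at 84.18 and 97.61 FPKM in control and at 87.88 and 76.33 in KO, which is -0.14 on the log2 scale (95% interval -0.46 to 0.17, adjusted p = 0.642 from limma). *S1pr4* (ENSMUSG00000044199, chromosome 10, 81497747 to 81500132), a second S1P receptor of lymphocytes, was at 19.02 and 29.74 FPKM in control and at 28.2 and 19.94 in KO. Within each group its libraries differed by 10.7 and 8.26 FPKM, whereas the group means, 24.4 and 24.1 FPKM, were nearly the same. Its log2 fold change was -0.0047, and its sign turned when 1 library was left out or the libraries were rescaled to the same total. *S1pr2*, *S1pr3* and *S1pr5* were at 3.74 FPKM or less, so *S1pr1* was the main S1P receptor mRNA in these cells.

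*P2ry10* (ENSMUSG00000050921, X chromosome, 107088492 to 107104974) was at 128.27 and 122.04 FPKM in control and at 133.21 and 154.21 in KO. Both KO libraries were higher, by at least 4.94 FPKM, but the KO libraries lay 21.0 FPKM apart. The log2 fold change was 0.19 (95% interval -0.09 to 0.48, adjusted p = 0.468 from limma). A stretch of 570 bases, 19.7% of its longest transcript, is 94.6% identical to *P2ry10b*, which the table lists under an older symbol at 1.19 FPKM or less. *Gpr65* (ENSMUSG00000021886, chromosome 12, 98268635 to 98276644) was at 178.72 and 172.16 FPKM in control and at 171.12 and 201.86 in KO, so that KO 1 was the lowest and KO 2 the highest of the 4 libraries. Its log2 fold change was 0.08 (95% interval -0.20 to 0.37, adjusted p = 0.795 from limma).

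Ratios between related receptors within a library do not depend on a scale factor common to that library. The step that gave the columns a common distribution may still alter such ratios. The pairs were chosen after the values were seen. The ratio of *Ptger4* to *Ptger2* was 0.821 and 0.855 in control and 0.500 and 0.539 in KO. In both KO libraries EP4 mRNA thus stood at a smaller share of EP2 mRNA than in either control library. The ratio of *P2rx4* to *P2rx7* was 2.55 and 2.33 in control and 4.27 and 3.59 in KO. The ratio of *Gpr18* to its neighbour *Gpr183* was 0.206 and 0.214 in control and 0.293 and 0.315 in KO. For these 3 ratios the groups did not overlap, and the two-sided exact permutation p was 0.333 each, the smallest that 2 libraries against 2 allow. For *P2rx4* to *P2rx7* and *Gpr18* to *Gpr183* this was fixed in advance. In both KO libraries the first gene was higher, and the second lower, than in both control libraries. These 2 ratios restate those values and add no support. The mean of *Ptger2* was 33.98 FPKM in control and 33.9 in KO, so its ratio mainly restates the values of *Ptger4* and adds no support either. The ratio of *S1pr1* to *S1pr4* was 4.43 and 3.28 in control and 3.12 and 3.83 in KO, with overlapping groups (exact permutation p = 0.667).

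**Figure D3:**
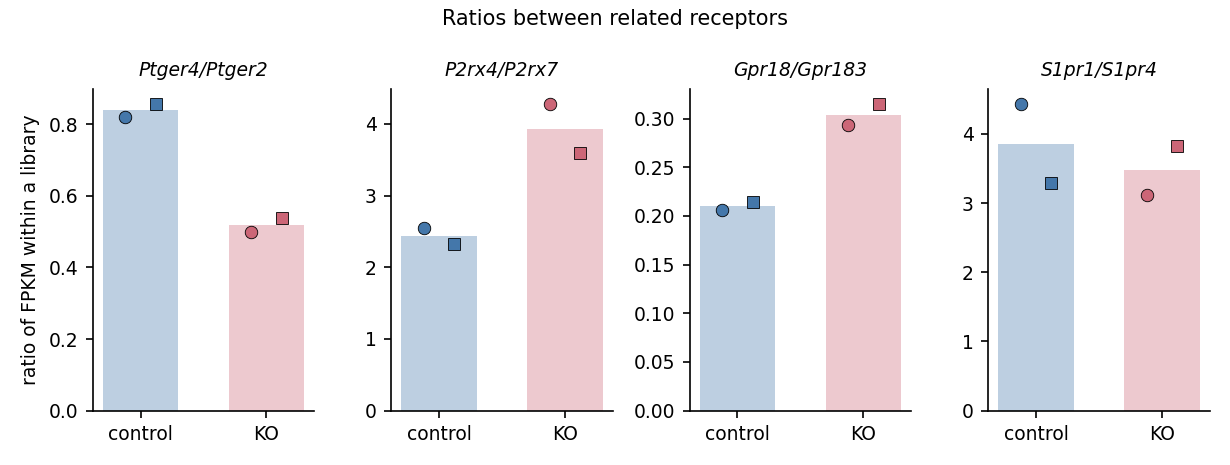
Ratio of FPKM within each library for 4 pairs of related or neighbouring genes, with bars at the group means and axes that start at 0 (circles, libraries 1; squares, libraries 2). The KO libraries lie below the control libraries for *Ptger4*/*Ptger2*, above them for *P2rx4*/*P2rx7* and *Gpr18*/*Gpr183*, and among them for *S1pr1*/*S1pr4*.

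Further receptors, most of them for the same classes of ligand, were then examined, from a list of 50 genes. Most were nearly absent, with 39 not tested and 28 of these below 1 FPKM in every library, and the untested *Ptger1* and *Ptger3* were at 0.26 FPKM or less. Of the 11 tested, 4 were called higher in KO and 0 lower, beside 8.61% and 7.57% of all genes tested, with a median log2 fold change of 0.27. *Gpr174*, a receptor of lysophosphatidylserine like P2RY10, rose from 23.04 and 28.97 FPKM in control to 40.58 and 38.64 in KO, with a log2 fold change of 0.60 (adjusted p = 0.135 from limma). *Gpr171* was at 54.31 and 52.98 FPKM in control and at 85.01 and 106.19 in KO, which is 0.81 on the log2 scale (adjusted p = 0.0647 from limma). *Gpr171* is not placed here among receptors of lipids, protons or nucleotides, so the count of 4 covers more than these ligand classes. *Cysltr1*, a receptor of cysteinyl leukotrienes, was at 2.32 and 2.59 FPKM in control and at 4.16 and 8.56 in KO, and its p rose to 0.110 from limma without KO 2. *Cysltr1* passed the filter on FPKM only through its KO mean of 6.36, so that its call, and with it the count of 4, was favoured by the filter. The calls on *Gpr174* and *Gpr171* held in all 15 alternatives. *Gpr34* and *Gpr132*, which are grouped with *P2ry10* and *Gpr65* respectively, had log2 fold changes of 0.28 and 0.26 and did not pass the test.

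Most enzymes and transporters around S1P and prostaglandins were too low to be tested. Of 8 genes for S1P synthesis, export and breakdown, only 2 were tested and 1 was called lower, beside 7.57% of all genes tested. The median log2 fold change of these 2 was -0.19 and that of all genes tested -0.0039. *Sgpl1*, which encodes the lyase that breaks S1P down, fell from 48.9 ± 1.87 (SD, n = 2) to 38.4 ± 1.10 FPKM (log2 fold change -0.34, unadjusted p = 0.0270, adjusted p = 0.243 from limma), but its call was lost without control 2, KO 1 or KO 2, with an unadjusted p of up to 0.134. *Sphk2*, an S1P-making kinase, was at 7.46 and 13.4 FPKM in control and at 12.26 and 7.72 in KO. Of 9 prostaglandin genes, only *Ptgs2* and *Ptges3* were tested and neither was called, with a median log2 fold change of 0.10.

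Genes that release, degrade or recycle extracellular nucleotides were all expressed, and of 9 tested 2 were called higher and 1 lower, beside 8.61% and 7.57% of all genes, with a median log2 fold change of 0.16. *Nt5e*, which encodes CD73, the enzyme that turns AMP into adenosine, was listed at 196.91 FPKM in both control libraries and lower, at 144.38 and 159.14, in KO. Its log2 fold change was -0.38 (standard error 0.11, unadjusted p = 0.0104, adjusted p = 0.180 from limma). *Cd38*, an NAD-consuming enzyme, rose from 13.5 ± 0.544 to 18.9 ± 1.07 FPKM (log2 fold change 0.46, adjusted p = 0.222 from limma), and *Enpp1*, which hydrolyses ATP, from 15.4 ± 2.73 to 20.9 ± 2.09 (log2 fold change 0.43, adjusted p = 0.300). The call on *Nt5e* was lost without KO 1 (p up to 0.0893), that on *Cd38* without control 1, KO 1 or KO 2 (p up to 0.112) and that on *Enpp1* in 6 of the 15 alternatives, among them without control 2, KO 1 or KO 2 (p up to 0.227). *Entpd1*, which encodes CD39 and removes ATP, was at 21.67 and 21.51 FPKM in control and at 25.39 and 23.11 in KO and did not pass the test.

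Downstream of the receptors, 28 of 35 genes for G proteins, their effectors and regulators were tested, of which 3 were called higher and 3 lower, counts near the 8.61% and 7.57% of all genes, with a median log2 fold change of 0.04. *Gnas*, which encodes the Gs subunit used by EP2 and EP4, was at 134.24 and 133.62 FPKM in control and at 92.56 and 103.5 in KO, which is -0.45 on the log2 scale (standard error 0.11, unadjusted p = 0.00531, adjusted p = 0.135 from limma), and its p was 0.0548 without KO 1. *Rgs2* and *Rgs16*, which encode proteins that shorten G protein signals, fell from 561 ± 5.64 (SD, n = 2) to 382 ± 56.4 and from 41.5 ± 5.35 to 24.6 ± 2.26 FPKM. *Pde3b*, which encodes a phosphodiesterase that degrades cyclic AMP, was at 6.8 and 8.33 FPKM in control and at 20.94 and 21.7 in KO. Its log2 fold change was 1.39 (standard error 0.17), and it was the only gene of this list with an adjusted p below 0.05 (0.0273 from limma). The adjusted p was above 0.05 with all gene types (0.0841), without a trend (0.0642), with no filter (0.319) and without KO 1 (0.192) or KO 2 (0.240). *Adcy7*, which encodes an adenylyl cyclase that makes cyclic AMP, rose from 5.23 ± 0.163 to 8.61 ± 1.76 FPKM, and *Gna15* from 44.6 ± 0.198 to 59.0 ± 2.73. Those 2 calls were lost without KO 1, and that on *Adcy7* also without control 1 or control 2, with p of up to 0.166 for *Adcy7* and 0.0944 for *Gna15* from limma.

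S1PR1 is controlled in T cells by the transcription factor KLF2 and by CD69, so a list of 7 trafficking genes was compared as well. *Klf2* was at 13.28 and 12.84 FPKM in control and at 12.42 and 9.05 in KO, and *Cd69* at 1273.79 and 1229.66 in control and at 1159.22 and 1593.26 in KO, and neither was called. Of the 7 genes, 3 were called lower and 0 higher, beside 7.57% and 8.61% of all genes tested. The median log2 fold change of the 7 was -0.28 and that of all genes tested -0.0039. *Ccr7*, the receptor that guides T cells to lymph nodes, fell from 564 ± 31.7 (SD, n = 2) to 277 ± 58.6 FPKM, a log2 fold change of -1.04 (adjusted p = 0.0475 from limma). This adjusted p lay close to 0.05 and was above it in 8 of the 15 alternatives, up to 0.319 with no filter, and without KO 1 (0.0684) or KO 2 (0.240) among them. *Itgae*, which encodes the integrin CD103, fell from 28.7 ± 3.37 to 19.2 ± 1.99 FPKM, and its p was 0.0715 without KO 2.

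**Figure D4:**
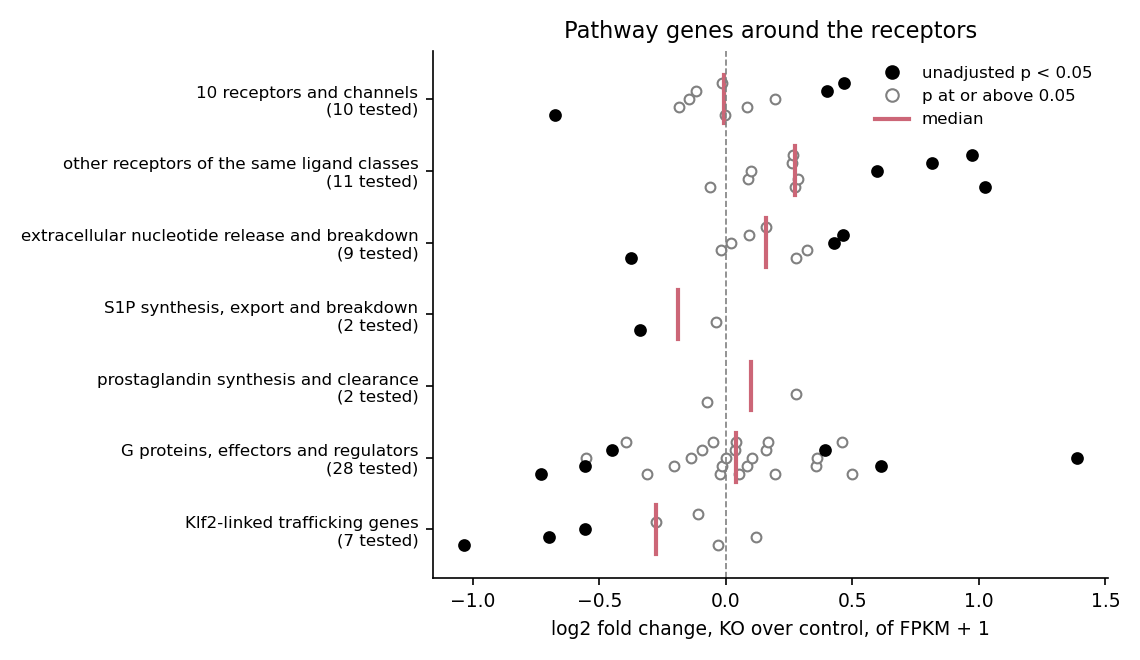
Log2 fold change (KO over control, of FPKM + 1) of the 10 receptors and channels and of the tested genes of 6 pathway lists, filled where the unadjusted p from limma was below 0.05, with a red line at each median. The further receptors have 4 filled points above 0 and none below, and the trafficking genes 3 filled points below 0 and none above. Over all genes tested, 8.61% were called higher and 7.57% lower, and the lists were chosen with earlier results of these data known.

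Among the genes tested whose values across the 4 libraries ran closest to *Ptger4* were *Pou2f2* and *Pisd*. Their log2(FPKM + 1), centred on each gene's mean, differed from that of *Ptger4* by a root mean square of 0.021 each. *Pou2f2* was at 4.83 and 5.74 FPKM in control and at 3.46 and 2.58 in KO. It passed the filter on FPKM only through its control mean, which favoured its likeness to a gene lower in KO. The measure spans only 4 libraries and is a description.

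Markers of other cell types were read from the same libraries. Of 8 myeloid markers 5 were tested and 0 were called. The 8 markers summed to 187 to 214 FPKM in control and 193 to 236 in KO, most of it *Lyz2*. *C1qa* was at 26.18 and 20.67 FPKM in control and at 31.32 and 24.21 in KO. *Cd68* was at 24.92 and 25.14 in control and at 21.36 and 31.01 in KO. *Csf1r* lay between 4.42 and 5.69 FPKM, and *Adgre1* was at 4.38 and 3.66 in control and at 5.6 and 6.24 in KO. *Itgam*, *Cx3cr1* and *S100a8* were at 0.76 FPKM or less. The 7 B and plasma cell markers summed to 450 to 503 FPKM in control and 432 to 454 in KO, mainly *Xbp1* and *Jchain*, and of these 3 were tested and 0 called, with *Ms4a1* and *Pax5* at 0.63 FPKM or less. Of the epithelial markers, *Epcam* fell from 29.7 ± 1.53 (SD, n = 2) to 20.4 ± 1.10 FPKM (adjusted p = 0.147 from limma), beside which the 5 others were at 0.49 FPKM or less. Of the endothelial and stromal markers, *Pecam1* rose from 35.5 ± 1.14 to 46.0 ± 4.62 FPKM (adjusted p = 0.252), while *Cdh5* and *Kdr* were at 0.25 FPKM or less. Without KO 1 the unadjusted p was 0.0516 for *Epcam* and 0.204 for *Pecam1* in limma, and without control 1 it was 0.0884 for *Pecam1*. The 5 markers of CD8 T and NK cells summed to 3.61 FPKM or less in every library. The part of other cells in the values of *Ptger4*, *P2rx4* and *Gpr18* was not tested.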

How the data were processed

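Per the labels and the methods, the authors mapped paired reads to GRCm38 with STAR 2.5, quantified genes with RSEM 1.2 on a GENCODE annotation and deposited FPKM with 2 decimals for 53379 genes, 1 column per library. The columns share a common distribution, a step that the methods do not name. They keep no counts or depth, so the authors' edgeR test on counts could not be repeated, and no counting interval was computed. Gene types and positions came from a later GENCODE annotation of GRCm38, which held 53274 of the identifiers, and promoter sequences from RefSeq on GRCm38.p6.

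Following the authors' criteria, protein-coding genes with a mean above 5 FPKM in either group (7639) were tested with limma 3.58.1 in R 4.3.3 on log2(FPKM + 1), KO against control, without covariates and with a trended empirical Bayes step. P-values were adjusted over all genes tested by the Benjamini-Hochberg method. The fit was run on simulated data with independent normal values and the spread that the fit had estimated. This checks the calculation and not whether its assumptions hold for these libraries. The members and lists were chosen with earlier results of these data known. The rule for named genes took the 10 members, the called genes of each list or, failing these, its 2 most abundant, genes that overlap or resemble a member, *Setd2*, and the 3 genes closest to the member with the smallest p. Other genes, such as *Klf2*, *Cd69*, *Entpd1*, *Sphk2*, *Gpr34* and *Gpr132*, were named for their role after their values were seen. Some genes that the rule took are counted in their lists but not reported here by name. Similar transcripts were found with blastn 2.17.0. The alternatives were other pseudocounts (0.1 and 5), filters (a mean of at least 1, or none beyond leaving out genes at 0 in all libraries), gene types, scalings, no trend, a replicate block and leaving out each library. A crossed pairing as a block, added after seeing the data, was counted among the 15. This block favours calls in these data, so a call that held with it is no support.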

Additional observations from a re-analysis of the deposited data

How the results depend on the processing

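The call on *Ptger4* (lower in KO) held in all 15 alternatives, with a log2 fold change between -0.82 and -0.53. Among these was the crossed pairing described below, which was added after seeing the data and gave the smallest adjusted p (0.0215 from limma). In the other alternatives with all 4 libraries, the adjusted p lay between 0.125 and 0.355. The call on *P2rx4* held in 14 (log2 fold change 0.41 to 0.52) and that on *Gpr18* in 12 (0.28 to 0.52). With the crossed pairing their adjusted p from limma was 0.0515 and 0.0925. In the other alternatives with all 4 libraries it was 0.162 to 0.413 for *P2rx4* and 0.239 to 0.493 for *Gpr18*. The signs of *S1pr4*, *Ptger2* and *Gpr65*, none of which was called, turned when 1 library was left out, where their log2 fold changes ran from -0.31 to 0.30, from -0.22 to 0.19 and from -0.036 to 0.20, and that of *S1pr4* also with libraries rescaled to the same total (0.0020). The further receptors had between 4 and 7 genes called higher and 0 lower in the 15 alternatives. With 1 library left out, where the lone library of a group is assumed to vary like the others, 1 or 2 of the 10 genes were called higher, and over all genes tested 330 to 650 were called higher, 314 to 600 lower and 2 to 66 at an adjusted p below 0.05, beside 658, 578 and 45 with all libraries. The adjusted count was 27 with a mean FPKM of at least 1, 13 with all gene types, 3 without a trend and 0 with no filter, where the unadjusted test gave 1170 genes higher in KO and 776 lower.

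Libraries that carry the same number deviated in opposite directions (r = -0.305 over the 7639 genes), which gives no sign that the numbers pair them. With the replicate block, 1 of the 10 genes was called higher (*P2rx4*) and 1 lower (*Ptger4*), and over all genes 419 were higher, 377 lower and 27 called after adjustment. The block ended the calls on *Gpr18*, *Sgpl1*, *Enpp1*, *Ikzf2* and *Pecam1*. A crossed pairing as the block was added after seeing the data, and with it these counts were 1008, 983 and 465, and 1 of the 10 genes passed an adjusted p below 0.05. The crossed block matches the opposite deviations above, so its higher counts were favoured in advance and add no support. Why the libraries deviated in this way was not tested. Depth is unknown, and 2 pools per group leave the 95% intervals of uncalled genes wide.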
